A study of Mus musculus with 16 samples.

Results

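The genes described here are 35 genes of the unfolded protein response of the endoplasmic reticulum, chosen by gene symbol from a fixed list. All 35 were present in each of the 3 deposited tables, which together held 26653 genes, of which 16076 were in all 3 tables. They fall into 4 roles: 18 genes for protein folding, 9 for degradation of misfolded proteins, 4 stress sensors and transducers, and 4 for protein translocation and transport. RNA was sequenced from mouse cells in 16 libraries, 2 for each of 8 groups.

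Mouse embryonic stem cells (ESCs) carried an Actb knockout (KO), a deletion of the full Actb locus (LD) or the wild-type genome. Mouse embryonic fibroblasts (MEFs) carried an Actg1 KO, a deletion of the full Actg1 locus or the wild-type genome. Cells named mouse kidney fibroblasts (MKFs) carried a KO of Kindlin-2 (gene Fermt2), and their controls carried the floxed Kindlin-2 gene. Actb and Actg1 encode the cytoplasmic actins, and Kindlin-2 is an integrin activator of cell adhesions. The series title concerns genetic compensation set off by decay of a mutant mRNA, and a locus without the gene makes no such mRNA. The labels do not give the type of KO allele, the Cre used, the number of clones or whether the 2 libraries of a group came from separate cultures. The p-values therefore measure how far these libraries differ from each other, and that spread may be technical.

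Proteins that enter the endoplasmic reticulum are folded there by chaperones, and misfolded ones are sent back to the cytosol for degradation. When unfolded proteins build up, 3 sensors in the membrane respond. IRE1 (Ern1) splices the mRNA of the transcription factor XBP1, ATF6 is cut into a transcription factor, and PERK (Eif2ak3) slows translation and raises ATF4. XBP1 and ATF6 are known to raise chaperone and degradation genes, and fibroblasts, which secrete much collagen, depend on this folding capacity. The data hold mRNA levels per gene, so XBP1 splicing, ATF6 cleavage and the sensor proteins were not measured.

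The regulatory letters best known for these genes are the endoplasmic reticulum stress elements, bound by ATF6 with NF-Y and by XBP1, and they are shown because the members that carry them can be set beside those that do not. RefSeq promoters (build GRCm38.p6) were matched for 29 of the 35 genes, and the 250 bases before each transcription start were searched on both strands. The element ERSE, spelled CCAAT, then 9 bases of any kind, then CCACG, was present before 9 of the 29 genes, and in 0.113% of all 32851 promoters in the same window. The 10 sites are printed from 5′ to 3′ on the strand that matched, with the fixed letters in capitals.
Hspa5: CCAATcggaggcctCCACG
Hsp90b1: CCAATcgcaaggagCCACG
Hsp90b1: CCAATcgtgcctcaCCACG
Calr: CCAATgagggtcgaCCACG
Canx: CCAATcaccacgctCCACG
Pdia6: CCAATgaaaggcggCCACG
Dnajc3: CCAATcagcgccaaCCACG
Creld2: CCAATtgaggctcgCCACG
Syvn1: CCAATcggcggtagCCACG
Derl3: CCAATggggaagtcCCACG
The Hspa5 site was at chr2:34772025-34772043, from 65 to 47 bases before the RefSeq start. The sites of Calr, Derl3 and Creld2 and the second site of Hsp90b1 were on the strand opposite to the gene. No 2 sites overlapped, and a match of letters is a description, not evidence of binding.

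Herpud1, which moved in all 3 cell types, held 2 other motifs: ERSE-II (ATTGG, 1 base of any kind, then CCACG, in 0.0304% of all promoters) and the ATF4-type element CARE (TTGCATCA, in 0.791%). The stretch from chr8:94386179-94386428 is given on the plus strand, with CARE first and ERSE-II second in capitals.
Herpud1: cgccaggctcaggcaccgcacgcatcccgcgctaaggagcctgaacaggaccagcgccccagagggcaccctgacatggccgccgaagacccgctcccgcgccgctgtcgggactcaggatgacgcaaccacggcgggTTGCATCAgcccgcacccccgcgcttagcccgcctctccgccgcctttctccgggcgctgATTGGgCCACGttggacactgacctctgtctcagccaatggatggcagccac
Sdf2l1, the member with the lowest fold change between KO and LD MEFs, had none of the 4 motifs in its window, chr16:17132384-17132633 on the minus strand.
Sdf2l1: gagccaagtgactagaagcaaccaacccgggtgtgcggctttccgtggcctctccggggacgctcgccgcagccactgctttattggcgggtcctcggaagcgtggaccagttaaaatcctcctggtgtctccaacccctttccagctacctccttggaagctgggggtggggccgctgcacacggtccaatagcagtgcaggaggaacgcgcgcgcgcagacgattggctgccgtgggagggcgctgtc
The remaining motif searched, the XBP1-type UPRE core TGACGTGG (0.563% of promoters), was matched in Sec24d alone among the 29 genes.

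The values are normalised read counts, which are gene counts that had been divided by a factor for each library and rounded. They summed to between 15565648 and 22094490 per library. Of the targeted genes, Actb had 23650 and 22707 in KO, 2372 and 2336 in LD and 36364 and 34140 in wild-type ESCs. The libraries labelled as full Actb deletions were the lowest but not near 0. Whether these reads came from the Actb locus was not tested, so they do not settle whether the label holds. Actg1 had 1004 and 1026 in KO, 25 and 15 in LD and 5737 and 5672 in wild-type MEFs, and Fermt2 had 1251 and 1240 in KO, against 3078 and 3142 in floxed MKFs. ESC libraries held all 6 pluripotency markers tested. MKF libraries went against their name: 6 of 8 fibroblast markers were listed and their values summed to 343 and 342 in KO, against 536 and 584 in floxed cells, and Col3a1 and Thy1 were not listed. Whole chromosomes also differed between mutants and controls. For genes on 1 autosome, the median log2 fold change against control ranged from -0.35 to 0.08 in Actb KO ESCs. It ranged from -0.40 to 0.10 in Actb LD ESCs and from -0.85 to 0.24 in Actg1 KO MEFs. In Actg1 LD MEFs it ranged from -0.49 to 0.21, and in Kindlin-2 KO MKFs from -0.46 to 0.69. Chromosome 8 was the lowest in both Actb mutants, which share their wild-type libraries, and was at 0.07 in KO against LD ESCs. Values centred on the median of a gene's chromosome are therefore given beside the results whose call they change.

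In the control cells, the major chaperones were the most abundant members. Per kilobase of exon and per 1000000 of the library sum, the calcium-binding lectin chaperone Calr was at 1057 ± 229 in wild-type ESCs, 1435 ± 62.4 in wild-type MEFs and 744 ± 0.28 in floxed MKFs (SD, n = 2 each). On the same scale, the HSP70 chaperone BiP (Hspa5) was at 208 in wild-type ESCs, 768 in wild-type MEFs and 234 in floxed MKFs, and the disulfide isomerase Pdia3 was at 251 in wild-type ESCs, 710 in wild-type MEFs and 276 in floxed MKFs. Sdf2l1, a cofactor of BiP, was at 11.8 in wild-type ESCs, 60.3 in wild-type MEFs and 9.92 in floxed MKFs. At the low end, Derl3, a degradation-channel gene, had deposited values between 5 and 26 in every library. These levels are set across tables that were normalised separately, so they carry no test.

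**Figure D1:**
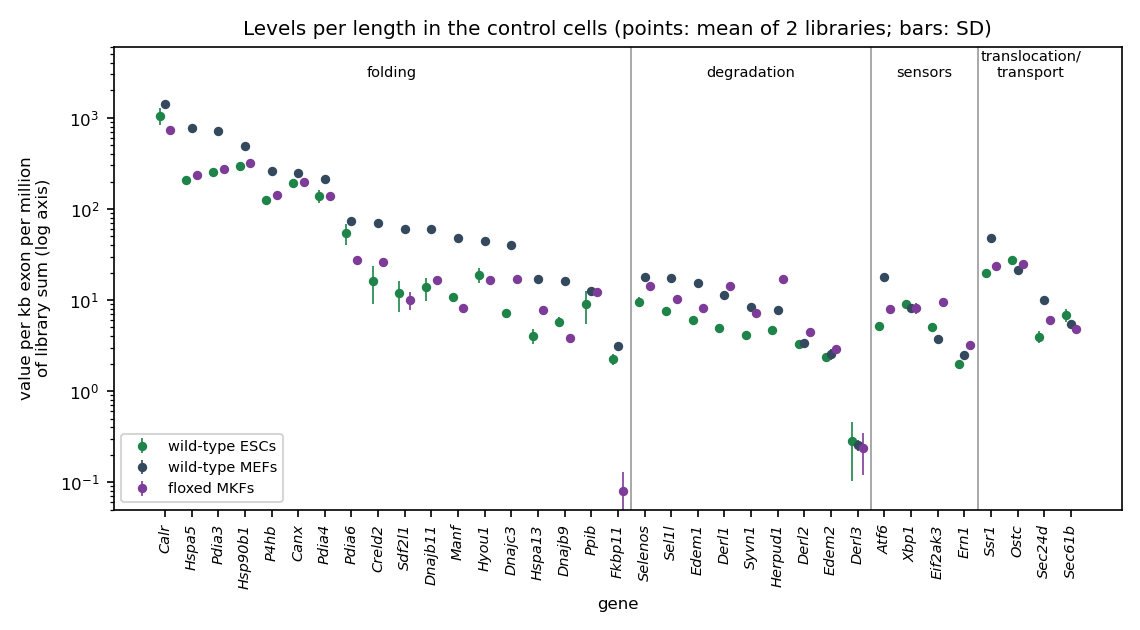
Level per kilobase of exon and per 1000000 of the library sum (log axis) for each gene by role, in wild-type ESCs, wild-type MEFs and floxed MKFs (points, mean of 2 libraries; bars, SD). Calr, Hspa5, Pdia3 and Hsp90b1 lie at the top in all 3 cell types and Derl3 near the bottom, with Fkbp11 of floxed MKFs below it.

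A gene was called changed at an adjusted p below 0.05, from limma fitted to all genes of a table on the log2(value + 1) scale. Fold changes are on that scale throughout. Fits that leave out 1 library called fewer genes over each whole table, not only fewer members. The plot of all members across the 7 comparisons shows few calls in ESCs and many in MEFs and MKFs, as among all genes.

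**Figure D2:**
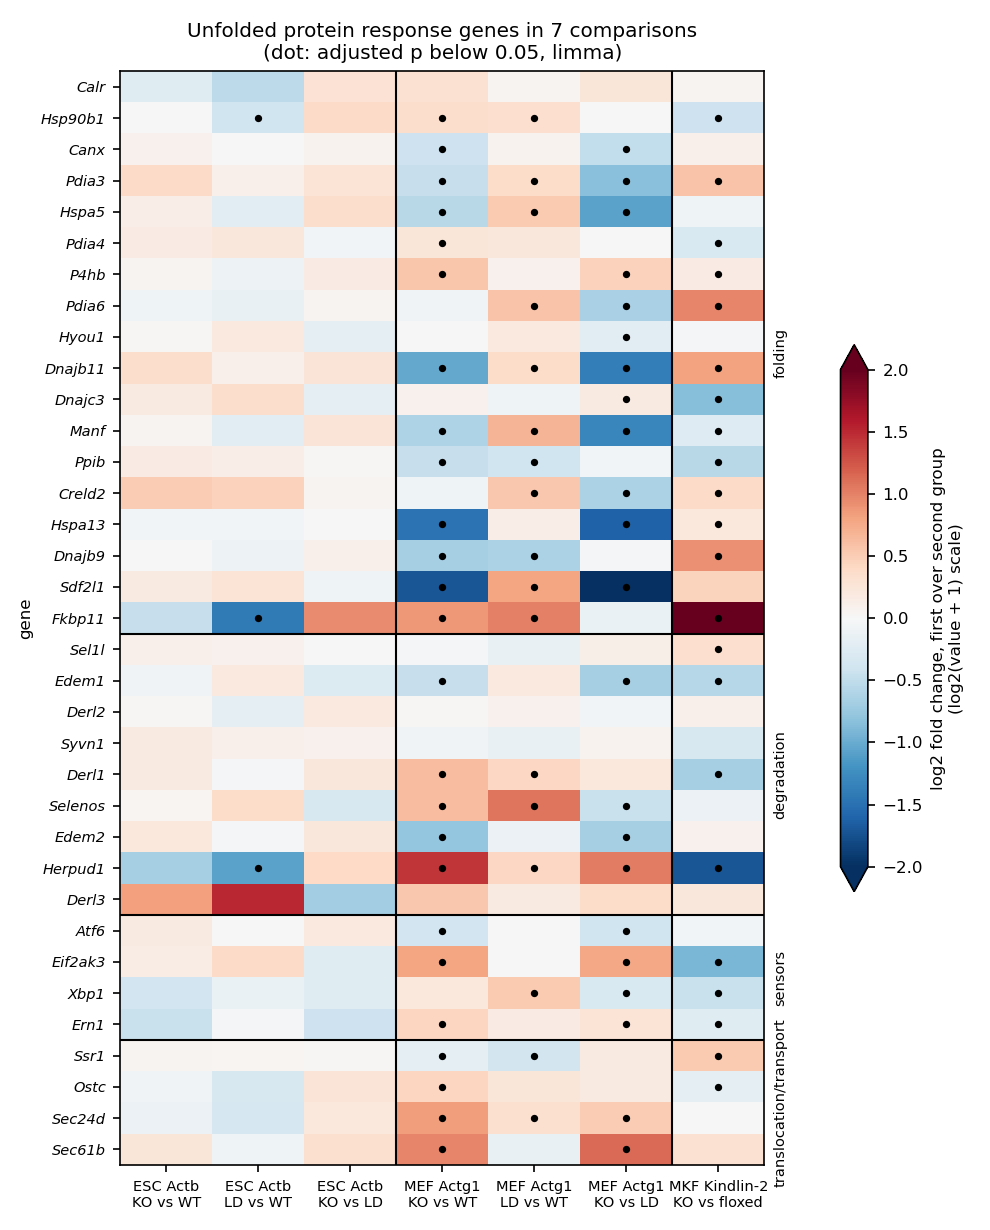
Log2 fold change of each of the 35 genes (rows, by role) in 7 comparisons (columns), the first-named group over the second, with a dot where the limma adjusted p was below 0.05. ESC columns hold 3 dots in all. In MEFs the folding genes Hspa5, Pdia3, Dnajb11, Sdf2l1 and Manf are blue in KO and red in LD against wild type.

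Actb KO against wild-type ESCs. No member was called in either direction, while of 23054 genes 2.44% were called higher and 2.44% lower. For genes whose mean was 100 or more, as for 33 of the members, the shares were 4.23% and 3.88%. At an unadjusted p below 0.05 in limma, 1 member was higher (Pdia3) and 3 were lower (Xbp1, Ern1 and Herpud1). Of all 23054 genes, 4662 passed that threshold in either direction, a larger share than of the members. BiP gave 15465 and 15595 in KO, against 14299 and 13909 in wild-type ESCs (log2 fold change 0.14, 95% interval -0.07 to 0.35). Pdia3 gave 16388 and 16479 in KO, against 12965 and 12365 in wild-type ESCs. The KO values lie above both wild-type values for these 2 genes, as for 23.2% of all genes, without passing the adjusted test.

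The ubiquitin-like degradation scaffold Herpud1, on chromosome 8, had 116 and 103 in KO, against 173 and 175 in wild-type ESCs. Its log2 fold change was -0.67 (limma adjusted p = 0.0693), and it was called lower with replicate number as a block (adjusted p = 0.0482). Among all 23054 genes the block gave 921 higher and 929 lower, in place of 563 and 563. The median gene of chromosome 8 was itself at -0.35 in this comparison, and Herpud1 was at -0.33, not called, when centred on it. Among the sensors, Ern1 had 182 and 197 in KO, against 258 and 256 in wild-type ESCs, and Xbp1 had 385 and 333 in KO, against 457 and 482 in wild-type ESCs. Both are lower in every KO library than in any wild-type library, as were 23.6% of all genes, with limma adjusted p = 0.105 and 0.126. Eif2ak3 was at 0.15 and Atf6 at 0.18 on the log2 scale. The 18 folding genes had a median log2 fold change of 0.07 and the 9 degradation genes one of 0.10, beside 0.00 for all genes. The largest changes of the uncalled folding genes were Creld2 at 0.50, Fkbp11 at -0.46 and Pdia3 at 0.38.

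Actb LD against wild-type ESCs. In the libraries labelled LD, which kept Actb reads, 3 members fell and none rose, beside 5.19% of all genes called higher and 6.0% called lower (9.41% and 8.34% of genes with a mean of at least 100). Hsp90b1, the chaperone GRP94, had 14335 and 15078 in LD, against 19178 and 19529 in wild-type ESCs (log2 -0.40, limma adjusted p = 0.0303). The peptidyl-prolyl isomerase Fkbp11 fell to 45 and 29 in LD, against 108 and 88 in wild-type ESCs (-1.41, limma adjusted p = 0.0108). Herpud1 fell to 76 and 90 in LD, against 173 and 175 in wild-type ESCs (-1.06, limma adjusted p = 0.00703). In all 3 genes every LD library lies below every wild-type library, as in 25.0% of all genes. The median gene of chromosome 8 was at -0.40 against these wild-type libraries. With chromosome medians centred, Herpud1 was at -0.66 and still called. Each of the 3 calls was lost when either LD library or either wild-type library was left out (limma adjusted p between 0.0505 and 0.141).

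BiP had 12291 and 11938 in LD, against 14299 and 13909 in wild-type ESCs, which did not pass the test (-0.22, limma adjusted p = 0.169). With replicate number as a block, 4 more members were called: Calr lower (-0.53, limma adjusted p = 0.0136) and the BiP cofactor Dnajc3, Derl3 and Eif2ak3 higher (0.36, 1.5 and 0.39, adjusted p = 0.0495, 0.0408 and 0.0356). Among all 23054 genes the block gave 1784 higher and 1943 lower, in place of 1196 and 1384. Calr also lies on chromosome 8 and was at -0.12 with chromosome medians centred. Derl3 had 26 and 24 in LD, against 5 and 13 in wild-type ESCs, values too low to weigh much. The sensors Xbp1, Ern1 and Atf6 were at -0.14, -0.03 and -0.01. Folding genes took 0.638% and 0.731% of the summed values in LD, against 0.778% and 0.842% in wild-type ESCs. Calr is the most abundant of them. Per kilobase of exon and per 1000000 it was at 732 ± 171 in LD and 1057 ± 229 in wild-type ESCs (SD, n = 2 each). The median log2 fold change of the 18 folding genes was -0.02, beside 0.01 for all genes.

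Actb KO against LD ESCs. Set directly against the libraries labelled LD, the Actb KO gave no member call, beside 2.56% of all genes called higher and 2.32% called lower (3.49% and 4.09% of those with a mean of 100 or more). At an unadjusted p below 0.05 in limma, 4 members were higher and 1 was lower in KO. Of all 23054 genes, 4278 passed that threshold in either direction, a larger share than of the members. With replicate number as a block, 3 were called higher in KO: BiP (0.36, limma adjusted p = 0.0436), Hsp90b1 (0.39, adjusted p = 0.0370) and Fkbp11 (0.94, adjusted p = 0.0350). Among all 23054 genes the block gave 909 higher and 826 lower, in place of 590 and 535. BiP had 15465 and 15595 in KO, against 12291 and 11938 in LD ESCs, and Hsp90b1 had 19440 and 19011 in KO, against 14335 and 15078 in LD ESCs. The sensors Ern1, Xbp1 and Eif2ak3 were at -0.41, -0.25 and -0.24 and Atf6 at 0.20, none of them called.

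Actg1 KO against wild-type MEFs. In the KO fibroblasts 12 members rose and 13 fell, with most called folding genes lower and PERK, IRE1 and Herpud1 higher. Centred on chromosome medians, the split was 17 higher and 9 lower, beside 4710 higher and 3409 lower of all 21589 genes. As deposited, 20.6% of all genes were called higher and 19.1% lower, and among genes with a mean of at least 100, 25.0% and 34.0%. Of the folding genes, 4 rose and 9 fell, with a median of -0.26 beside 0.06 for all genes. Of the degradation genes 3 rose and 2 fell, of the sensors 2 rose and 1 fell, and of the translocation and transport genes 3 rose and 1 fell. Both KO and LD MEFs are set against the same 2 wild-type libraries below, so the 2 sets of fold changes are not independent. The direct test of KO against LD follows them.

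Among the folding genes that fell, Sdf2l1 (chr16:17130138-17132383) had 441 and 441 in KO, against 1445 and 1443 in wild-type MEFs, a fold of 0.306 (log2 -1.71, limma adjusted p = 2.0e-06). Hspa13, an HSP70-like ATPase of microsomes on the same chromosome, had 891 and 887 in KO, against 2488 and 2481 in wild-type MEFs (-1.48, limma adjusted p = 4.12e-06). Dnajb11, a BiP co-chaperone also on chromosome 16, had 2031 and 2076 in KO, against 4248 and 4088 in wild-type MEFs (-1.02, limma adjusted p = 9.59e-06). For these 3 genes the KO libraries are far below both wild-type libraries. Of all genes, 31.5% were lower in KO without overlap. The median gene of chromosome 16 was at -0.85 in this comparison. Centred on it, Sdf2l1 was at -0.87, Hspa13 at -0.64 and Dnajb11 at -0.18, all still called.

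BiP (chr2:34771970-34777547) fell to 47909 and 48134 in KO, against 71814 and 68554 in wild-type MEFs (-0.55, limma adjusted p = 0.000443). Pdia3 fell to 34922 and 35112 in KO, against 48870 and 47469 in wild-type MEFs (-0.46, limma adjusted p = 0.00154). Both genes lie on chromosome 2, whose median gene was at -0.53, and centred on it BiP was at -0.02 and Pdia3 at 0.07, neither of them called. The secreted stress protein Manf, on chromosome 9, fell to 2369 and 2383 in KO, against 3613 and 3650 in wild-type MEFs (-0.61, limma adjusted p = 9.41e-05), and to -0.29 when centred, still called. Some Manf exon letters are shared with the antisense gene Dcaf1, and the labels do not say whether counting used strand. The lectin chaperone Canx, the BiP co-chaperone Dnajb9 and the collagen-associated isomerase Ppib fell by 0.42, 0.66 and 0.46 on the log2 scale, Ppib no longer called when centred (-0.14).

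The folding genes that rose in KO were Fkbp11 (331 and 337 in KO, against 174 and 191 in wild-type MEFs), the collagen hydroxylase subunit and disulfide isomerase P4hb (0.55), Hsp90b1 (0.35) and the disulfide isomerase Pdia4 (0.24). The 18 folding genes together took 1.61% and 1.62% of the summed values in KO, against 1.59% and 1.53% in wild-type MEFs, Calr being the most abundant and not called (0.31). Of the 13 folding calls, 7 held with any 1 of the 4 libraries left out (P4hb, Dnajb11, Sdf2l1, Manf, Hspa13, Ppib and Fkbp11). The calls of BiP, Canx, Pdia3 and Dnajb9 were lost without either KO library, and those of Hsp90b1 and Pdia4 without each KO or wild-type library in turn (limma adjusted p between 0.0541 and 0.268). With chromosome medians centred, 7 folding genes were higher and 7 lower, and the median of the 18 was 0.03, beside 0.10 for all genes centred. Centring added the calls of Hyou1, a BiP nucleotide exchange factor (0.31), Pdia6 (0.22) and the BiP cofactor Dnajc3 (0.15) as higher and of Creld2 (-0.31) as lower.

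Among degradation genes, Herpud1 (chr8:94386438-94395377) rose, with 1039 and 1087 in KO, against 420 and 370 in wild-type MEFs, a fold of 2.69 (log2 1.43, limma adjusted p = 1.53e-05). Derl1, a channel protein for retrotranslocation, rose by 0.62, and the selenoprotein Selenos, which links the channel to the p97 ATPase, rose by 0.62. The mannosidase-like lectins Edem1 and Edem2 fell by 0.46 and 0.77, so degradation genes moved in both directions, at 5 higher and 1 lower with chromosome medians centred. Edem2, on chromosome 2, was at -0.24 when centred and no longer called. Without either KO library Edem1 and Edem2 lost their calls, as did Edem2 without the first wild-type library and Selenos without the second KO library (limma adjusted p between 0.0608 and 0.102). Sel1l and Syvn1, the core of the ubiquitin ligase, were at -0.04 and -0.08, not called, but at 0.26 and 0.25 and called with chromosome medians centred.

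Of the sensors, PERK (Eif2ak3) rose to 858 and 819 in KO, against 480 and 488 in wild-type MEFs (0.79, limma adjusted p = 0.000102). The groups do not overlap, and 37.0% of all genes were higher in KO in this way. IRE1 (Ern1) rose to 606 and 569 in KO, against 433 and 438 in wild-type MEFs (0.43, limma adjusted p = 0.00417). Atf6 fell to 2679 and 2765 in KO, against 3548 and 3544 in wild-type MEFs (-0.38, limma adjusted p = 0.00178), and Xbp1 was at 0.21, not called. Ern1 and Atf6 lost their calls without the first KO library (limma adjusted p 0.0551 and 0.0542). Of the translocation and transport genes, the translocon subunit Sec61b had 269 and 322 in KO, against 156 and 143 in wild-type MEFs, a log2 fold change of 0.97. Sec24d, a coat protein of vesicles that leave the endoplasmic reticulum, rose by 0.83 and the glycosylation subunit Ostc by 0.42. The translocon-associated Ssr1 fell by 0.19, a call lost without each library in turn and with chromosome medians centred (-0.01), and Ostc lost its call without either KO library or the first wild-type library (limma adjusted p between 0.05001 and 0.243).

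Fibroblast markers also moved, in both directions. All 8 were listed, none at 0, with 4 higher and 2 lower, and their values summed to 133023 and 140321 in KO, against 38997 and 35694 in wild-type MEFs. Col1a1 was the largest part of the sum, at 84930 and 91165 in KO, against 15137 and 13197 in wild-type MEFs. The 2 lower were Pdgfrb (1332 and 1374 in KO, against 2282 and 2174) and Postn (257 and 213, against 670 and 712). Sox2, a stem-cell marker, had 1326 and 1306 in KO, against 44 and 32 in wild-type MEFs. Of the 6 pluripotency markers only Sox2 and Nanog were listed in MEFs, Nanog at 18 and 15 in KO, against 4 and 2 in wild type. Pou5f1, Esrrb, Zfp42 and Dppa5a were not listed. Their part in the result was not tested. In bulk RNA, fewer cells of a type and less RNA per cell cannot be told apart.

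Actg1 LD against wild-type MEFs. In the locus deletion 14 members rose and 3 fell, beside 9.46% and 12.6% of all genes and 17.1% and 20.9% of genes with a mean of at least 100. Of the folding genes, 9 rose and 2 fell, with a median of 0.28 beside 0.00 for all genes. The 18 folding genes took 1.80% and 1.95% of the summed values in LD, against 1.59% and 1.53% in wild-type MEFs. BiP rose to 100146 and 102284 in LD, against 71814 and 68554 in wild-type MEFs (0.53, limma adjusted p = 0.0013). Sdf2l1 rose to 2551 and 2442 in LD, against 1445 and 1443 in wild-type MEFs (0.79, limma adjusted p = 0.000153). Manf rose to 5993 and 5702 in LD, against 3613 and 3650 in wild-type MEFs (0.69, limma adjusted p = 0.000169). In these 3 genes both LD libraries lie above both wild-type libraries, as in 26.3% of all genes.

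Fkbp11 had 398 and 340 in LD, against 174 and 191 in wild-type MEFs, a log2 fold change of 1.01. The disulfide isomerases Pdia6 and Pdia3 rose by 0.57 and 0.37, the stress-secreted Creld2 by 0.53, Dnajb11 by 0.36 and Hsp90b1 by 0.34. Dnajb9 and Ppib fell by 0.63 and 0.40, as they did in KO MEFs. All 11 calls among folding genes held with chromosome medians centred, and Pdia4 (0.34) and Hyou1 (0.22) were then called higher too. In all, 17 members were higher and 3 lower when centred, beside 2043 higher and 2644 lower of all 21589 genes. Without either wild-type library, Hsp90b1, Pdia3 and Ppib lost their calls, as did Dnajb9 without the second (limma adjusted p between 0.0637 and 0.14).

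Of the degradation genes 3 rose and none fell. Selenos rose to 1162 and 1260 in LD, against 540 and 615 in wild-type MEFs, a fold of 2.10. Herpud1 had 526 and 523 in LD, against 420 and 370 in wild-type MEFs (0.41), and Derl1 rose by 0.41. Herpud1 lost its call without either LD library or the second wild-type library, and Derl1 without the first LD or the second wild-type library (limma adjusted p between 0.0672 and 0.0788). Edem1, Edem2 and Sel1l were at 0.20, -0.11 and -0.16, not called, though Edem1 was called at 0.31 when centred. Xbp1 was the 1 sensor called, with 816 and 834 in LD, against 599 and 549 in wild-type MEFs (0.52, limma adjusted p = 0.00223). Eif2ak3 had 486 and 490 in LD, against 480 and 488 in wild-type MEFs, and Atf6 and Ern1 were at 0.02 and 0.16. Sec24d rose by 0.32 and Ssr1 fell by 0.36, calls that were lost without either wild-type library, and that of Sec24d also without either LD library (limma adjusted p between 0.0673 and 0.168). Of the 8 fibroblast markers 4 were lower and none higher in LD. Their values summed to 33161 and 33558 in LD, against 38997 and 35694 in wild-type MEFs, with Postn at 43 and 49 in LD, against 670 and 712 in wild-type MEFs. Their part in the result was not tested.

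Actg1 KO against LD MEFs. In the direct test, 7 members were higher and 15 lower in KO, beside 24.5% and 20.7% of all genes and 29.0% and 36.0% of genes with a mean of at least 100. The count of higher members depended on the scaling, at 11 higher and 14 lower with median-of-ratios scaling and 12 and 14 when genes above 1% of a library were left out of it. Centred on chromosome medians, it was 10 and 13, beside 5398 higher and 3794 lower of all 21589 genes. Of the folding genes 2 were higher and 10 lower, and 2 and 9 with chromosome medians centred. Their median was -0.35 as deposited and -0.23 centred, beside 0.07 for all genes as deposited and 0.10 centred.

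The genes BiP, Pdia3, Dnajb11, Sdf2l1 and Manf fell in KO and rose in LD against the shared wild-type libraries, and each was lower in KO in the direct test. That test uses the same KO and LD libraries, so it is not separate support. Of all 21589 genes, 19.1% were called lower in KO and 9.46% higher in LD against wild type. In KO against LD, 20.7% were called lower, and 31.8% were lower without overlap of the libraries. The share of all genes that moved as these 5 did was not counted. Sdf2l1 had 441 and 441 in KO, against 2551 and 2442 in LD MEFs, a fold of 0.177 (log2 -2.50, 95% interval -2.64 to -2.36, limma adjusted p = 3.11e-07). Dnajb11 had 2031 and 2076 in KO, against 5315 and 5390 in LD (-1.38, limma adjusted p = 1.86e-06). Manf had 2369 and 2383 in KO, against 5993 and 5702 in LD (-1.30, limma adjusted p = 2.31e-06). BiP was 0.474 of its LD level in KO (-1.08, limma adjusted p = 1.2e-05), and Pdia3 0.561 of it (-0.83, limma adjusted p = 5.72e-05). The KO and LD libraries do not overlap in any of the 5 genes, and all 5 calls held with any 1 library left out.

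**Figure D3:**
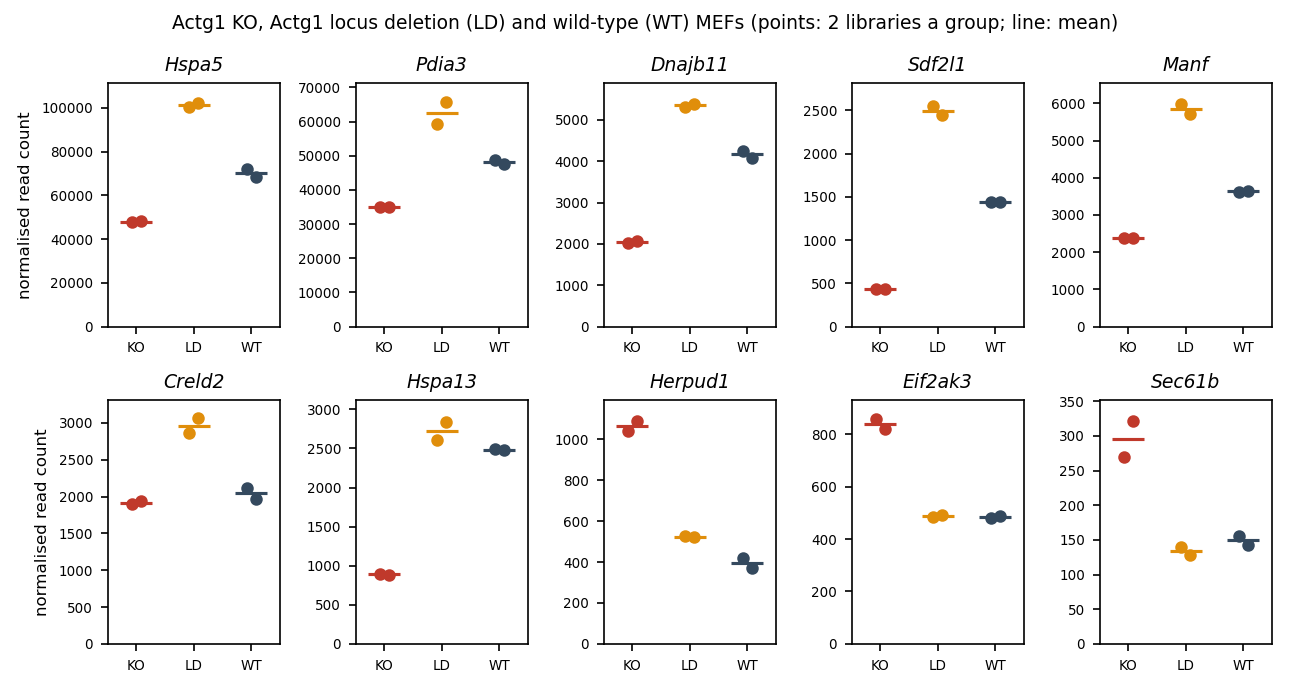
Normalised read counts (linear axes from 0) of 10 genes in each library of Actg1 KO, Actg1 LD and wild-type MEFs (points, libraries; lines, means of 2). BiP (Hspa5) lies at 47909 and 48134 in KO, 100146 and 102284 in LD and 71814 and 68554 in wild type, and Herpud1 and Eif2ak3 are highest in KO.

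Centring on chromosome medians shrank these differences without ending the calls. Between KO and LD the median gene of chromosome 16 was at -0.97 and that of chromosome 2 at -0.63. Centred, Sdf2l1 was at -1.54, Manf at -1.0, BiP at -0.44, Dnajb11 at -0.42 and Pdia3 at -0.19. Hspa13 was at -1.61 as deposited and -0.65 centred, and Creld2, Pdia6 and Canx at -0.63, -0.65 and -0.49 as deposited and -0.75, -0.51 and -0.45 centred. P4hb was higher in KO (0.47). Hyou1 and Dnajc3 were called at -0.21 and 0.18, and lost their calls with chromosome medians centred (0.09 and 0.02). Both also lost them without either KO library or the first LD library, and Hyou1 without the second LD library (limma adjusted p between 0.0635 and 0.255).

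**Figure D4:**
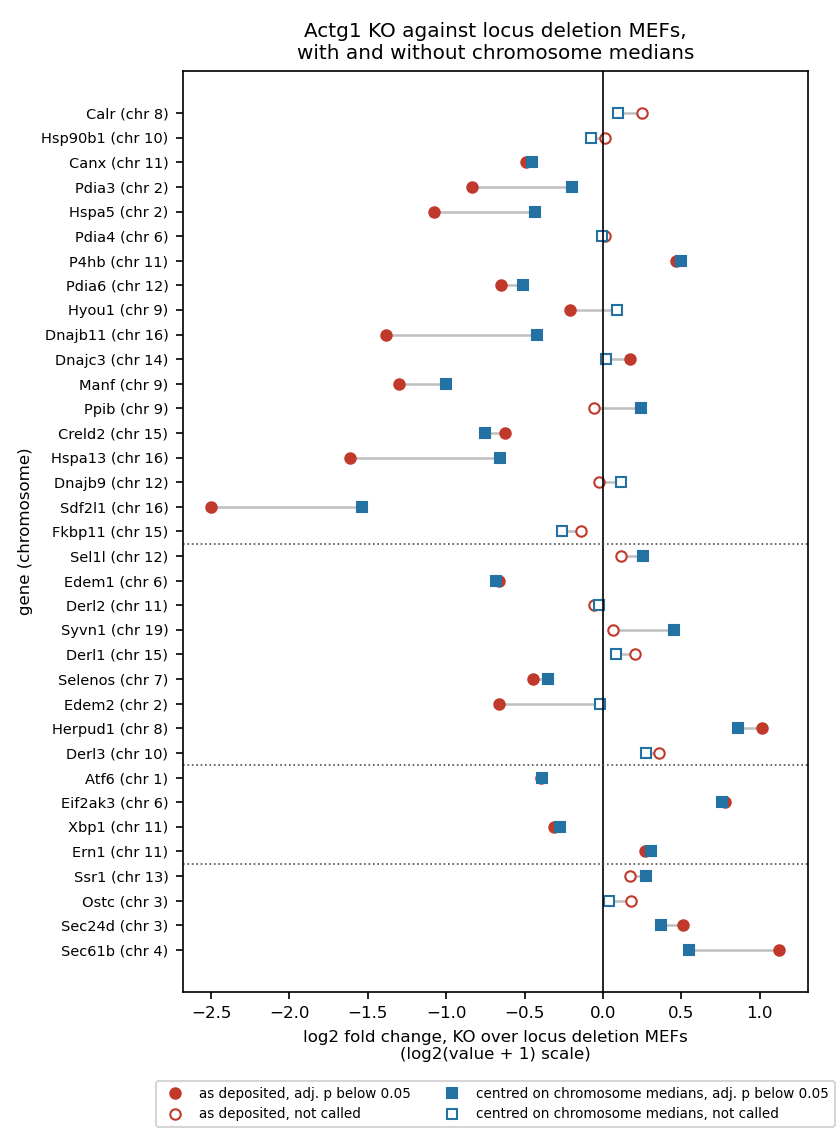
Log2 fold change of each gene in Actg1 KO over LD MEFs, as deposited (circles) and centred on the median of its chromosome (squares), filled where the limma adjusted p was below 0.05. Sdf2l1 lies at -2.50 as deposited and -1.54 centred and BiP (Hspa5) at -1.08 and -0.44, while Herpud1 and Eif2ak3 stay to the right of 0.

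Herpud1 was 2.02-fold higher in KO than in LD MEFs (1.02, limma adjusted p = 5.08e-05) and PERK 1.72-fold (0.78, limma adjusted p = 8.02e-05). Edem1 was lower in KO, with 1563 and 1558 in KO, against 2435 and 2508 in LD MEFs (-0.66). Edem2 (-0.66) and Selenos (-0.45) were lower too, Edem2 at -0.02 and not called when centred. Centring added the calls of Sel1l (0.26), Syvn1 (0.45), Ppib (0.24) and Ssr1 (0.27) as higher. Atf6 was at -0.40, Xbp1 at -0.31 and Ern1 at 0.27, all called. Edem2, Selenos, Xbp1 and Ern1 lost their calls without either KO library, Edem2 also without the first LD library and the other 3 without the second (limma adjusted p between 0.0506 and 0.124). Sec61b was 2.18-fold higher in KO (1.13) on chromosome 4, whose median gene was at 0.59, and was at 0.55 when centred, still called. Sec24d was higher by 0.51, a call lost without the second KO library (limma adjusted p = 0.0526).

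The 9 genes with ERSE letters were set beside the 20 matched genes without them. Among genes with a mean of at least 100, 25.0% were called higher and 34.0% lower in KO against wild-type MEFs. Those shares were 17.1% and 20.9% in LD against wild type and 29.0% and 36.0% in KO against LD. In KO against wild-type MEFs 1 of the 9 rose and 2 fell, with a median log2 fold change of -0.07, and of the 20 others 9 rose and 8 fell, with a median of 0.12. In LD against wild-type MEFs 4 of the 9 rose and none fell, with a median of 0.17, beside 8 that rose and 3 that fell of the 20, with a median of 0.18. In KO against LD MEFs 1 of the 9 was higher and 4 were lower, with a median of 0.01, beside 6 higher and 7 lower of the 20, with a median of -0.04. The 4 ERSE-bearing genes that were lower in KO than in LD MEFs were BiP, Canx, Pdia6 and Creld2, and the 1 that was higher was Dnajc3. In Kindlin-2 KO MKFs 2 of the 9 rose and 2 fell, beside 7 and 7 of the 20. There 32.0% and 34.0% of genes with a mean of at least 100 were called higher and lower. In Actb LD against wild-type ESCs 1 of the 9 and 2 of the 20 fell and none rose, beside 9.41% and 8.34%. The other ESC comparisons called none of these genes.

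Kindlin-2 KO against floxed MKFs. Here 10 members rose and 12 fell, beside 24.3% and 24.9% of all genes and 32.0% and 34.0% of genes with a mean of at least 100. Of the folding genes 8 rose and 5 fell, of the degradation genes 1 rose and 3 fell, and 3 of the 4 sensors fell. The medians were 0.13 for folding, -0.12 for degradation and -0.34 for sensors, beside 0.01 for all genes. With chromosome medians centred, 7 members and 6 folding genes were higher, and 11 members and 2 folding genes lower. Among all 18288 genes, 4368 were then higher and 4211 lower. Folding genes took 0.783% and 0.813% of the summed values in KO, against 0.746% and 0.757% in floxed MKFs.

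Pdia6 had 3348 and 3208 in KO, against 1625 and 1713 in floxed MKFs, a fold of 1.96 (log2 0.97, limma adjusted p = 0.000191). Dnajb11 had 1502 and 1544 in KO, against 851 and 883 in floxed MKFs (0.81, limma adjusted p = 0.000278). Dnajb9, a BiP co-chaperone that also restrains IRE1, had 307 and 289 in KO, against 153 and 162 in floxed MKFs (0.92, limma adjusted p = 0.000947). The groups do not overlap in these 3 genes, and 37.0% of all genes were higher in KO without overlap. Pdia6 and Dnajb9 lie on chromosome 12, whose median gene was at 0.69, and centred they were at 0.30, called, and at 0.24, not called. Pdia3 rose by 0.57, Creld2 by 0.39, Hspa13 by 0.20 and P4hb by 0.16, the last 2 not called when centred (-0.13 and 0.04). Fkbp11 had 29 and 16 in KO, against 5 and 2 in floxed MKFs, called but at values too low to weigh much.

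BiP had 14945 and 15209 in KO, against 15578 and 16335 in floxed MKFs (-0.08, not called), and was called at -0.30 with chromosome medians centred. Hyou1, at -0.02, was called at 0.42 when centred. Dnajc3, which inhibits PERK signalling as well as aiding BiP, fell to 794 and 756 in KO, against 1408 and 1403 in floxed MKFs (-0.86, limma adjusted p = 0.000266). Hsp90b1 fell by 0.42, Ppib by 0.56, Pdia4 by 0.30 and Manf by 0.26. Centred, Hsp90b1, Ppib and Pdia4 were at -0.03, -0.11 and -0.04, and Manf at 0.18, none called. Of the 13 folding calls only Pdia6, Dnajb11 and Dnajc3 held with any 1 of the 4 libraries left out. Dnajb9 lost its call without either floxed library, and the other 9 lost theirs without each KO or floxed library in turn (limma adjusted p between 0.0521 and 0.227).

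**Figure D5:**
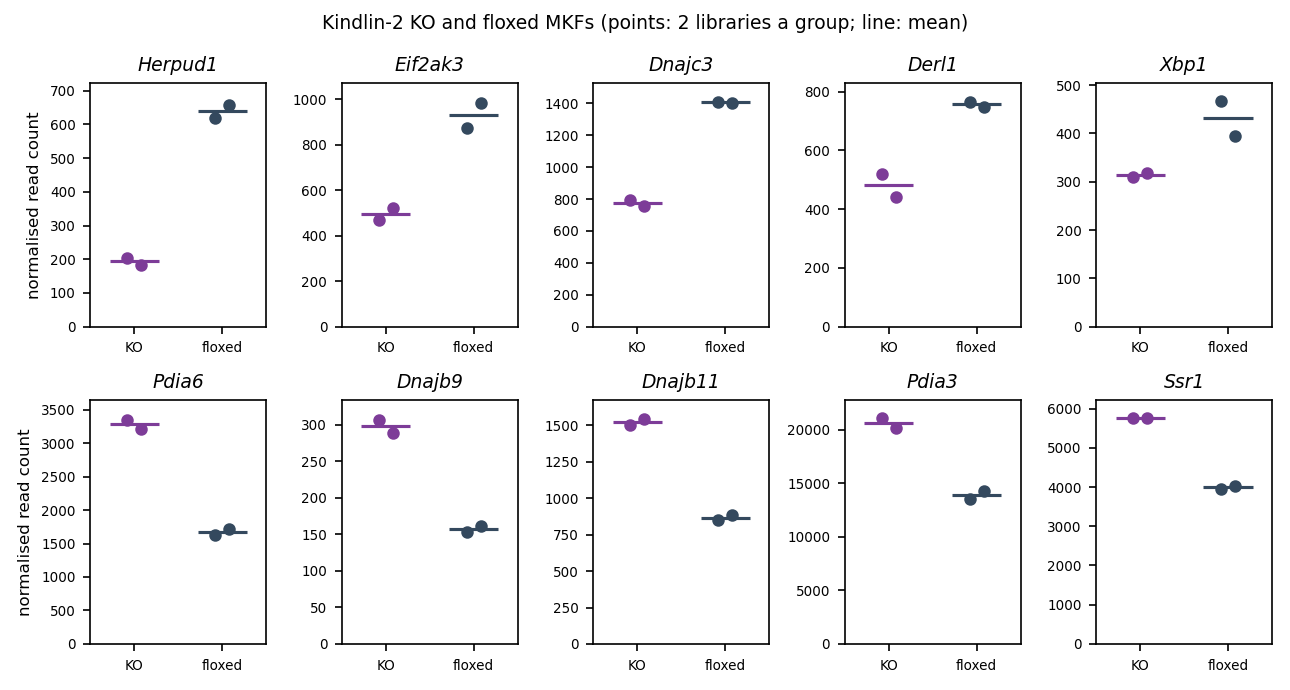
Normalised read counts (linear axes from 0) of 10 genes in each library of Kindlin-2 KO and floxed MKFs (points, libraries; lines, means of 2). Herpud1, Eif2ak3, Dnajc3, Derl1 and Xbp1 are lower in both KO libraries and Pdia6, Dnajb9, Dnajb11, Pdia3 and Ssr1 higher.

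Among degradation genes Herpud1 fell to 205 and 184 in KO, against 620 and 658 in floxed MKFs, a fold of 0.305 (log2 -1.71, limma adjusted p = 0.000185). Derl1 fell to 519 and 442 in KO, against 766 and 746 in floxed MKFs (-0.66), and Edem1 fell by 0.57. Sel1l rose by 0.34 on chromosome 12, and was called lower when centred (-0.33). Edem1 and Derl1 lost their calls without either floxed library, Sel1l without either floxed library or the second KO library, and Herpud1 without the second floxed library (limma adjusted p between 0.05002 and 0.144).

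PERK fell to 468 and 523 in KO, against 874 and 986 in floxed MKFs (-0.91, limma adjusted p = 0.00132). Xbp1 had 310 and 318 in KO, against 468 and 394 in floxed MKFs (-0.45), and Ern1 had 368 and 345 in KO, against 425 and 415 in floxed MKFs (-0.24). All 4 sensors were below the floxed libraries in both KO libraries, as were 36.3% of all 18288 genes. Atf6 was at -0.05 and not called, but called at -0.20 with chromosome medians centred. The calls of Eif2ak3, Xbp1 and Ern1 were lost without each KO or floxed library in turn (limma adjusted p between 0.0526 and 0.215). Ssr1 rose to 5771 and 5759 in KO, against 3961 and 4034 in floxed MKFs (0.53, limma adjusted p = 0.000361), a call held in every such fit. Ostc fell by 0.19, a call lost without each library in turn (limma adjusted p between 0.14 and 0.227), and Sec61b and Sec24d were at 0.31 and 0.01, not called.

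Epithelial markers moved with these genes. All 5 were listed, none at 0, and their values summed to 19795 and 20296 in KO, against 2046 and 2190 in floxed MKFs. The adhesion molecule Cdh1 had 1399 and 1531 in KO, against 10 and 16 in floxed MKFs. Kidney tubule markers, of which 4 of 5 were listed, summed to 1846 and 1918 in KO, against 5006 and 4772 in floxed MKFs. Of these 4, 2 were called lower and 2 were not called. Lrp2 had 734 and 769 in KO, against 3500 and 3310, and Cubn 95 and 74, against 73 and 82. Of the plasma-cell markers only Sdc1 and Prdm1 were listed. Sdc1 had 1679 and 1591 in KO, against 710 and 582 in floxed MKFs, and Prdm1 4 and 5, against 3 and 4. Their part in the result was not tested.

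Genes known as targets of the PERK and ATF4 branch, 17 in the list, were also counted. The activity of PERK was not measured, and its part in the changes of these genes was not tested. In Actg1 KO MEFs 13 rose and 3 fell against wild type, beside 20.6% and 19.1% of all genes, with a median of 0.62. The transcription factor Atf3 averaged 34 in KO and 2 in wild-type MEFs, and the cystine transporter Slc7a11 1038 in KO and 124 in wild-type MEFs. Sesn2 averaged 293.5 in KO and 104.5 in wild-type MEFs, and the ATF4 antagonist Trib3 335.5 in KO and 139 in wild-type MEFs. These are means of 2 libraries. In Actg1 LD MEFs 8 rose and 1 fell, beside 9.46% and 12.6% of all genes, with a median of 0.31. In KO against LD 7 were higher and 4 lower, beside 24.5% and 20.7%, with a median of -0.01. Centred, that median was 0.31, with 9 higher and 5 lower, beside 5398 and 3794 of all 21589 genes. In Kindlin-2 KO MKFs 2 rose and 11 fell, beside 24.3% and 24.9% of all genes, with a median of -0.81. There Slc7a11 averaged 158 in KO and 1110 in floxed MKFs, and the glutathione-degrading Chac1 167 in KO and 771 in floxed MKFs. Trib3 averaged 145 in KO and 579 in floxed MKFs, and asparagine synthetase Asns 1466 in KO and 5538 in floxed MKFs. In Actb KO ESCs none rose and 2 fell, beside 2.44% and 2.44% of all genes, and in Actb LD ESCs 1 rose and 4 fell, beside 5.19% and 6.0%. Centred on chromosome medians, the counts were 13 and 2 in KO MEFs and 3 and 13 in KO MKFs. Among all genes the centred counts were 4710 and 3409 in KO MEFs and 4368 and 4211 in KO MKFs.

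The other genes of the pathway are given by their counts of higher and lower calls. Beside them, genes with a mean of 100 or more were called higher and lower at 25.0% and 34.0% in Actg1 KO MEFs, 17.1% and 20.9% in Actg1 LD MEFs and 32.0% and 34.0% in Kindlin-2 KO MKFs. In ESCs these shares were 4.23% and 3.88% in Actb KO and 9.41% and 8.34% in Actb LD. Among 33 other folding genes, 10 rose and 12 fell in Actg1 KO MEFs, 5 and 6 in Actg1 LD MEFs, 9 and 15 in Kindlin-2 KO MKFs, 1 and 1 in Actb KO ESCs and 1 and 2 in Actb LD ESCs. The collagen chaperone Serpinh1 averaged 11091 in KO, 11259 in LD and 5243 in wild-type MEFs. It averaged 167 in KO and 4289 in floxed MKFs, and the collagen prolyl isomerase Fkbp10 12.5 in KO and 427 in floxed MKFs. Among 25 other degradation genes, 8 rose and 9 fell in KO MEFs, 3 and 7 in LD MEFs and 5 and 12 in KO MKFs. Among 33 other translocation genes 11 rose and 9 fell in KO MEFs, 5 and 3 in LD MEFs and 7 and 16 in KO MKFs. Of 16 other transducers, 6 rose and 3 fell in KO MEFs, among them the collagen-inducing factor Creb3l1, which averaged 956 in KO and 41.0 in wild-type MEFs. In LD MEFs 2 of these 16 rose and 1 fell, and in KO MKFs 2 rose and 6 fell of 15 tested, Creb3l1 averaging 4.50 in KO and 23.5 in floxed cells.

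Herpud1 and PERK both rose in Actg1 KO MEFs and both fell in Kindlin-2 KO MKFs. These values come from tables with different controls, and no test between the tables was made. Of the 35 genes, Derl2, a partner of Derl1, and Derl3 were called in none of the 7 comparisons. Derl2 had 571 and 611 in KO, 560 and 675 in LD and 620 and 543 in wild-type MEFs, and the 3 groups overlap. Syvn1 and Calr also passed no test as deposited. Derl2 and Syvn1 share exon bases with the antisense genes Mis12 and Mrpl49, so their values are uncertain if counting did not use strand.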

How the data were processed

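The authors deposited 3 tables of normalised read values (a score: gene read counts divided by a library factor and rounded to whole numbers), 1 for each cell type. Per the submitters' processing notes, STAR 2.5.3a, featureCounts 1.6.0 and DESeq2 1.14.1 were named, with builds mm10 and GRCm38. Per the labels' protocols, libraries were made from total RNA with a stranded kit, but whether counting used strand is not given in the sources used here. All columns of per-sample values were used (0 left out). The values are not raw counts, so no count test was run.

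Genes with a mean of at least 1 were fitted with limma 3.58.1 (R 4.3.3, empirical Bayes with a trend) on log2(value + 1), all groups of a table in 1 fit, and p-values were adjusted by Benjamini-Hochberg over all genes of that table. The test was two-sided. With 2 libraries a group, precision is low. The procedure was tested on simulated data. Gene positions and exon lengths came from GENCODE M21 (GRCm38), and promoters from RefSeq. The members and lists were chosen with earlier results of these data known. A member was named with values where it passed the test, and otherwise if it was a sensor, Hspa5 or among the 3 largest changes of its role. Of other lists, at most 4 genes were named.

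Alternatives were the pseudocount (0.5 or 5), no filter, a mean of at least 10, 2 other scalings, only the 4 libraries compared, a replicate block, chromosome medians centred and each library left out. Deviations of same-numbered libraries from their group means correlated at 0.678, 0.349 and 0.492 in ESCs, where the block value is therefore given. They correlated at -0.211, -0.302 and 0.214 in MEFs and -0.0952 in MKFs, where the numbers do not pair the libraries. This pairing comes from the values, not from the labels.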

Additional observations from a re-analysis of the deposited data

Results flagged for a closer look

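Members were flagged if Actg1 KO and LD were called in opposite directions against the shared wild-type MEFs and the direct test was called too. This picked 5 genes, all of them folding genes. Being part of the rule, and run on the same KO and LD libraries, the direct test adds no separate support. The log2 difference, KO over LD, was -1.08 for Hspa5, -0.83 for Pdia3, -1.38 for Dnajb11, -2.50 for Sdf2l1 and -1.30 for Manf, each at a limma adjusted p of at most 5.72e-05. Both KO libraries lay below both LD libraries in each gene, as in 31.8% of all genes. Hspa5 and Pdia3 lie on chromosome 2 and Dnajb11 and Sdf2l1 on chromosome 16, where the median gene differed by -0.63 and -0.97. With chromosome medians centred, the KO value of Hspa5 against wild type was -0.02 and that of Pdia3 0.07, so that only Dnajb11, Sdf2l1 and Manf were then still called lower in KO and higher in LD against wild type.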

How the results depend on the processing

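In Actb KO against wild type, 1 member was called lower with the scaling that leaves out genes over 1 percent, and 1 with a replicate block, in place of 0. In Actb LD against wild type 3 were called higher with a replicate block in place of 0, and 1 lower with only the 4 libraries compared in place of 3. In Actb KO against LD, 2 were called higher with a mean of at least 10 and 3 with a replicate block, in place of 0. The block also raised the calls among all genes in each ESC comparison. In MEF Actg1 KO against LD, 11 were higher with median-of-ratios scaling and 12 with the other scaling, in place of 7. Among all genes these scalings called 5913 and 6251 higher, in place of 5286.

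Leaving out 1 library gave 0 to 0 lower calls in Actb LD ESCs. It gave 8 to 10 higher and 5 to 12 lower in Actg1 KO MEFs, 9 to 12 and 0 to 3 in Actg1 LD MEFs, 4 to 8 and 11 to 13 in KO against LD MEFs, and 3 to 5 and 1 to 4 in Kindlin-2 KO MKFs. Among values called as deposited or under the alternative, direction reversed with chromosome medians centred and under no other alternative run. In Actg1 KO against wild-type MEFs this held for Pdia3 (0.0718), Pdia6 (0.22), Hyou1 (0.31), Sel1l (0.26) and Syvn1 (0.25). In KO against LD MEFs it held for Hyou1 (0.0871) and Ppib (0.24), and in MKFs for Manf (0.18), Hyou1 (0.42), Hspa13 (-0.13) and Sel1l (-0.33). The cause was not tested. Uncalled values near 0 also changed sign under this and other settings, the scalings included. In MEFs and MKFs the replicate block ended the calls of Ssr1 in KO and Dnajc3 in KO against LD MEFs, and of P4hb, Hspa13, Ern1 and Ostc in MKFs, where the numbers pair nothing. Derl3 has no value with a mean of at least 10 in MKFs. Rounding of the deposited values limits genes with values under about 10.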

Other observations

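Cytosolic heat shock genes, 14 in the list, serve protein folding outside the endoplasmic reticulum. In Actg1 KO MEFs none rose and 5 fell against wild type, beside 25.0% and 34.0% of all genes with a mean of at least 100. Hspa1b averaged 155.5 in KO and 424 in wild-type MEFs, and Hspa4 11152.5 in KO and 18254 in wild-type MEFs. Hsp90ab1 averaged 74456.5 in KO and 118378 in wild-type MEFs, and Hsp90aa1 8211.5 in KO and 12065 in wild-type MEFs. In Actg1 LD MEFs 1 rose and 2 fell, and in KO against LD 3 were higher and 6 lower. In Actg1 LD against wild type those shares were 17.1% and 20.9%, and in KO against LD 29.0% and 36.0%. In Kindlin-2 KO MKFs 7 rose and 3 fell, beside 32.0% and 34.0%, with Hsp90aa1 averaging 24027 in KO and 11232 in floxed cells. The heat shock counts and means are as deposited, not centred on chromosome medians, which ranged from -0.46 to 0.69 over autosomes in these MKFs. In ESCs 1 rose and none fell in Actb KO (Hsph1, 8794 in KO and 6128.5 in wild type), and none was called in Actb LD.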
